A study of Mus musculus with 24 samples.

Results

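The miR-29 family has 3 entries, named mir-29a, mir-29b and mir-29c in the file, among the 510 miRNAs of the deposited small RNA count table, and they were taken by name and followed through all 24 libraries. The libraries hold the small RNA of tumors from PyMT mice and of normal glands from FVB mice of the same age, with 3 mice of each kind at week 6, week 8, week 10 and week 12. The PyMT mice were females of strain FVB, heterozygous for a transgene in which the MMTV promoter drives the polyoma middle T oncoprotein in mammary epithelium, and the labels name their tissue hyperplasia at week 6, adenoma/MIN at week 8, early carcinoma at week 10 and late carcinoma at week 12. The control glands came from FVB females without the transgene, and no mouse received a treatment. All 8 groups had n = 3 mice. The tissue was whole gland or tumor, and the methods of the study state that hyperplasia and adenoma/MIN samples also held normal mammary cells. For the carcinoma samples they report mostly tumor cells, with few stromal, muscle and inflammatory cells on stained sections. In such bulk samples, fewer cells of a type and less RNA per cell cannot be told apart. Total counts ranged from 1626022 to 3931375 per normal library and from 1032241 to 2213972 per tumor library, and 237 miRNAs passed the filter on low counts, all 3 family members among them.

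MiRNAs are short RNAs that guide Argonaute proteins to messenger RNAs, mostly through pairing of bases 2 to 8 of the miRNA, the seed, with the 3′ UTR. Members of the miR-29 family share a seed and are known for repressing many genes of the extracellular matrix, among them fibrillar and basement membrane collagens, elastin and fibrillin, and they are therefore studied in fibrosis. Fibroblasts, smooth muscle and other stromal cells express them, and in mammary epithelium they have been linked to luminal differentiation.

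The mature 3′ arms of the family, from RefSeq (GRCm38.p6), are shown with the seed in capitals because the family is defined by it and because the few bases outside it are all that separates the members in a sequencing read.
miR-29a-3p: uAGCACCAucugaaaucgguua
miR-29b-3p: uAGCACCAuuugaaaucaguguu
miR-29c-3p: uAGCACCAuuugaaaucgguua
Of the 1679 mature mouse names in the RefSeq table, 3 had this seed, and they were these members. Counting from 1 at the 5′ end, miR-29a and miR-29c differ by 1 substitution, C10U. From miR-29c to miR-29b there are 3 substitutions, G18A, U21G and A22U, and miR-29b is 23 bases long where the others have 22. The number of mismatches allowed in the alignment is not given in the sources used here, and how many reads of miR-29a and miR-29c were exchanged was not tested. The file lists 1 count per name, so that the 5′ and 3′ arms of a hairpin were not separated.

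The family is encoded as pairs at separate places in the genome (mm9). Mir29a lies at chr6:31012660-31012747 and Mir29b-1 at chr6:31013017-31013097, both on the minus strand, with 269 bases between the hairpins and no other annotated gene over either. Mir29b-2 lies at chr1:196863234-196863314 and Mir29c at chr1:196863741-196863828, both on the plus strand and 426 bases apart, within an exon of the lincRNA A330023F24Rik. The miR-29b-3p of both hairpins has the same sequence, so the counts of miR-29b could come from either chromosome.

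In group means, all 3 members were lower in tumor than in normal gland at each week, miR-29b and miR-29c by a larger fold than miR-29a. The differences of miR-29a at weeks 6 and 8 and of miR-29b at week 6 did not pass the test given below. At week 12, miR-29b and miR-29c were at 101 ± 7.48 and 1373 ± 41.1 CPM in tumor (SD, n = 3) against 328 ± 99.5 and 4264 ± 1629 CPM in normal gland, and miR-29a was at 12644 ± 496 against 25561 ± 7050 CPM. Here CPM is the count relative to the summed counts of the miRNAs that passed the filter in that library. It is scaled to counts per 1e6 with TMM factors over all 24 libraries.

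miR-29a was the most counted member in every library. By count it was the 8th to 19th miRNA of a normal library and the 15th to 26th of a tumor library. At week 6, miR-29a had 15694, 10615 and 8115 CPM in normal replicates 1, 2 and 3 and 7606, 9463 and 8725 CPM in the tumors. At week 8 the normal glands had 26009, 12769 and 10418 CPM and the tumors 11433, 10066 and 8788 CPM. The groups overlapped at both weeks, since the lowest normal library lay below the highest tumor. At week 10 the values were 22261, 15491 and 13477 CPM in normal glands and 9300, 10004 and 11133 CPM in tumors. At week 12 they were 32455, 18364 and 25866 CPM in normal glands and 12632, 13146 and 12155 CPM in tumors. At weeks 10 and 12 every tumor lay below every normal library of its week.

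miR-29b was the least counted member, with 281 to 1365 counts per normal library and 55 to 244 per tumor. At week 6 the normal glands had 189, 124 and 154 CPM and the tumors 67.8, 123 and 82.5 CPM, so that the highest tumor came just under the lowest normal gland. At week 8 the values were 324, 189 and 161 CPM in normal glands and 104, 64.7 and 102 CPM in tumors. At these weeks and the later ones no tumor reached the lowest normal library of its week. At week 10 the normal glands had 261, 203 and 185 CPM and the tumors 85.4, 73.5 and 100.2 CPM. At week 12 the normal glands had 442, 279 and 262 CPM and the tumors 95.7, 109 and 97.4 CPM.

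miR-29c lay between the other members in level. Its week 6 values were 3577, 2195 and 1770 CPM in normal glands and 1226, 1563 and 1421 CPM in tumors. At week 8 they were 3998, 2301 and 2010 CPM in normal glands and 1368, 825 and 1056 CPM in tumors. Tumor and normal libraries did not overlap at these or the later weeks. At week 10 miR-29c had 3346, 2686 and 2897 CPM in normal glands and 863, 1265 and 1416 CPM in tumors. At week 12 it had 6088, 2951 and 3754 CPM in normal glands and 1326, 1403 and 1390 CPM in tumors, where the spread between tumors was the smallest of the 8 groups. In each of the 8 groups the same library was highest for all 3 members, and in normal glands this was replicate 1 at all 4 weeks.

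**Figure D1:**
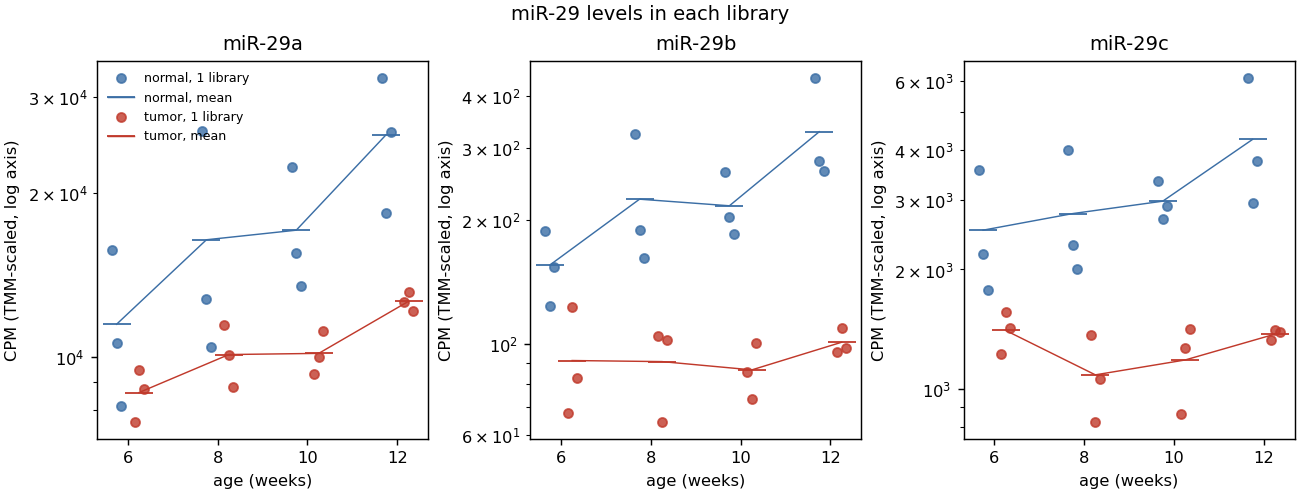
Level of miR-29a, miR-29b and miR-29c in each library (points) by age in weeks, in CPM on a log axis, with group means as bars joined by lines (n = 3 per group). Normal glands (blue) lie above tumors (red) without overlap for miR-29b and miR-29c at all 4 weeks, and for miR-29a at weeks 10 and 12.

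For each week, the 3 tumors were set against the 3 normal glands by the quasi-likelihood test of edgeR over the 237 tested miRNAs, with Benjamini-Hochberg adjustment, and a miRNA with an adjusted p under 0.05 was called under- or over-expressed in tumor. Of the 12 comparisons of 3 members at 4 weeks, 9 were called, all as under-expressed. miR-29c was under-expressed at all 4 weeks, miR-29b at weeks 8, 10 and 12, and miR-29a at weeks 10 and 12. Under-expression was common among the tested miRNAs, with 29.5%, 13.5%, 27.4% and 21.5% of them called in the order of the weeks. These shares rest on 70, 32, 65 and 51 miRNAs, and fewer were called with a tumor left out, down to 30 at week 6 and 37 at week 10 without replicate 2, 18 at week 8 without replicate 1 and 24 at week 12 without replicate 3. At all 4 weeks together, 18 miRNAs were called under-expressed, 7.59% of those tested, and miR-29c was 1 of these. All 3 tumors lay below all 3 normal libraries in 10 of the 12 comparisons of family members, where 34.6%, 19.8%, 31.6% and 28.7% of the tested miRNAs did so at weeks 6, 8, 10 and 12.

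For miR-29c, hyperplasia of week 6 gave a log2 fold change over normal gland of -0.84 (SE 0.27, edgeR adjusted p = 0.0313) and adenoma/MIN of week 8 gave -1.41 (SE 0.36, adjusted p = 0.0208). Early carcinoma of week 10 gave -1.35 (SE 0.20, edgeR adjusted p = 0.00150) and late carcinoma of week 12 gave -1.65 (SE 0.30, adjusted p = 0.00371). Its week 6 call was lost when any tumor or normal replicate 1 was left out, and without normal replicate 1 the log2 fold change was -0.50 (edgeR adjusted p = 0.0573). The week 8 call was lost without tumor replicate 3 (edgeR adjusted p = 0.0550).

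For miR-29b, the log2 fold change was -0.77 at week 6, which was not called (SE 0.30, edgeR adjusted p = 0.0606). It was -1.36 at week 8 (SE 0.40, edgeR adjusted p = 0.0325), -1.34 at week 10 (SE 0.24, adjusted p = 0.00306) and -1.71 at week 12 (SE 0.28, adjusted p = 0.00221). The week 8 call was lost without any 1 of the tumors or without normal replicate 1, with edgeR adjusted p-values from 0.0583 to 0.0902. The calls of miR-29b and miR-29c at weeks 10 and 12 held with each library left out in turn.

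For miR-29a, the log2 fold change was -0.41 at week 6 (SE 0.25, edgeR adjusted p = 0.185) and -0.76 at week 8 (SE 0.38, adjusted p = 0.142), and neither was called. Without normal replicate 1, the week 8 value was -0.17 (edgeR adjusted p = 0.483). At week 10 it was -0.76 (SE 0.20, edgeR adjusted p = 0.0161) and at week 12 -1.03 (SE 0.27, adjusted p = 0.0160). These calls were lost without tumor replicate 1 (edgeR adjusted p = 0.0556) or 2 (adjusted p = 0.0544) at week 10 and without tumor replicate 3 at week 12 (adjusted p = 0.0600), while at week 6 leaving out normal replicate 3 gave -0.61 with an adjusted p of 0.0281. The median log2 fold change of all tested miRNAs lay between -0.19 and -0.09 at the 4 weeks, nearer to 0 than every value of the family. With library sizes in place of TMM these medians were -0.26, -0.22, -0.17 and -0.0059 in the order of the weeks, the members stayed negative at each week, and the calls were the same apart from miR-29b at week 6, which was then called (edgeR adjusted p = 0.0383).

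**Figure D2:**
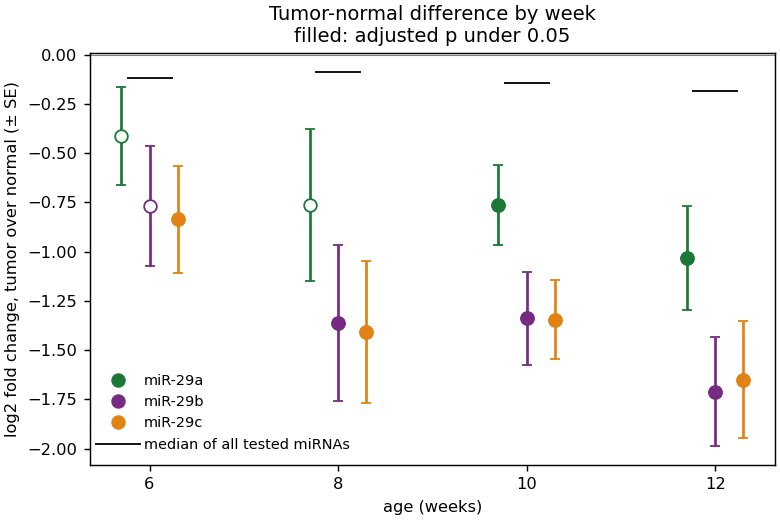
Log2 fold change of tumor over normal with its standard error for each member at each week (3 against 3 libraries). Filled points have an adjusted p under 0.05, black bars are the medians of the 237 tested miRNAs, and miR-29b and miR-29c lie below miR-29a at each week.

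Among the 237 tested miRNAs ordered from the lowest log2 fold change, miR-29c stood at places 68, 25, 24 and 24 at weeks 6, 8, 10 and 12. miR-29b stood at places 75, 28, 25 and 21, and miR-29a at places 100, 66, 64 and 45. Other miRNAs thus had lower fold changes than any family member at each week.

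**Figure D3:**
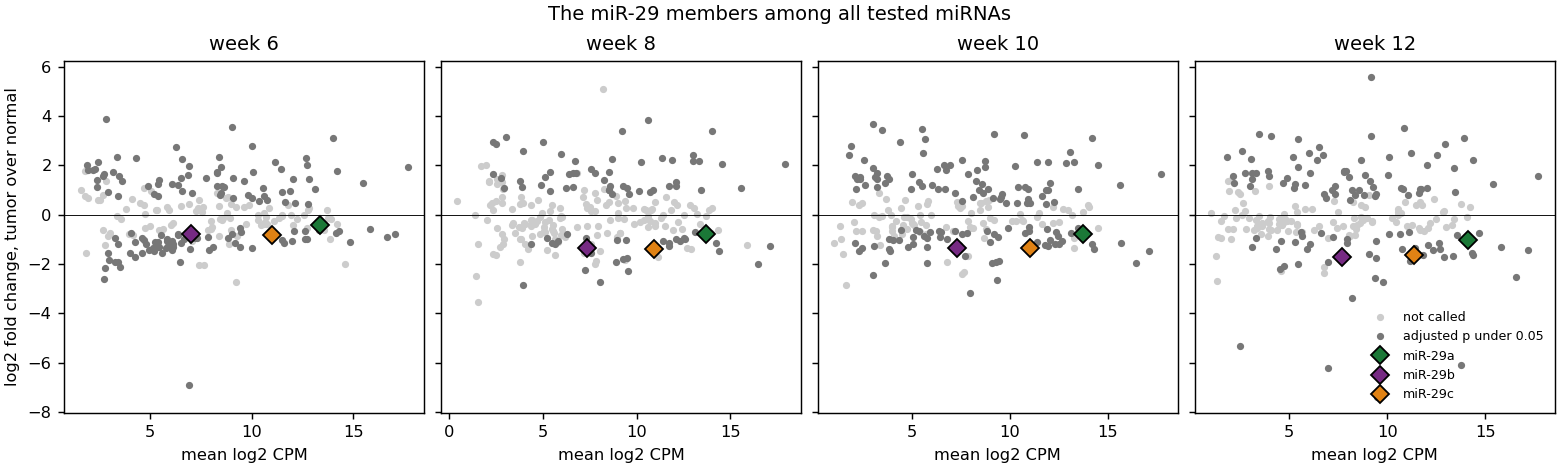
Log2 fold change of tumor over normal against mean log2 CPM for the 237 tested miRNAs at each week, with called miRNAs in dark grey and the miR-29 members as colored diamonds. The members span abundances from low (miR-29b) to high (miR-29a) and lie below 0 at all 4 weeks, within the range of the other miRNAs.

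The balance between members was compared through the log2 ratio of their counts within a library, which does not depend on how libraries are scaled. The ratio of miR-29c to miR-29a was lower in tumor by 0.59 on the log2 scale on average over the 4 weeks, with a 95% interval from -0.76 to -0.43 for tumor minus normal, so that in tumors the ratio was 0.663 times that in normal glands. Every tumor lay below every normal gland of its week at all 4 weeks (exact permutation test within weeks, two-sided, p = 1.25e-05, the smallest that its 160000 arrangements allow, and adjusted p = 3.75e-05 over 3 ratios). The log2 ratio of miR-29c to miR-29a had a median of -2.44 in normal libraries (range -2.78 to -2.13) and -3.06 in tumors (range -3.61 to -2.60). At week 6 the ratios were -2.20 ± 0.07 in normal glands and -2.62 ± 0.02 in hyperplasia (SD, n = 3), the narrowest spread of any week. The difference was -0.41 in hyperplasia, -0.73 in adenoma/MIN, -0.64 in early and -0.59 in late carcinoma, each with an exact permutation p of 0.1, the smallest that 3 against 3 libraries allow.

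The ratio of miR-29b to miR-29a was also lower in tumor, by 0.60 on the log2 scale with an interval from -0.81 to -0.38 (exact permutation test within weeks, p = 6.25e-05, adjusted p = 9.375e-05), and the groups did not overlap at weeks 8, 10 and 12. At week 6 they overlapped, with a difference of -0.42 (exact permutation p = 0.3). No difference was found for the ratio of miR-29b to miR-29c, which was -0.003 with an interval from -0.20 to 0.19 (exact permutation test within weeks, p = 0.972). In 6 of the 12 same-numbered pairs of a week it was lower in tumor and in 6 it was higher.

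**Figure D4:**
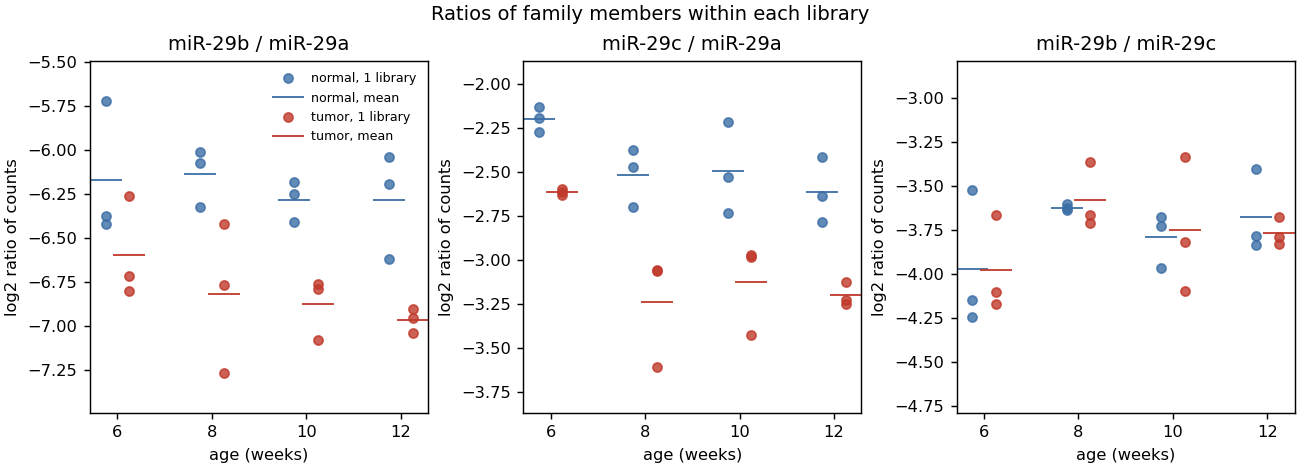
Log2 ratio of counts between members in each library (points) by age in weeks, with group means as bars, on axes of the same height. Tumors lie below normal glands for both ratios to miR-29a, without overlap at all 4 weeks for miR-29c, while tumor and normal libraries overlap at each week for miR-29b over miR-29c.

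In shares of the summed miR-29 counts, miR-29a made up 80.6% to 86.6% of a normal library and 84.9% to 91.9% of a tumor library. miR-29c made up 12.6% to 18.4% in normal glands and 7.53% to 14.02% in tumors, and miR-29b 0.878% to 1.53% and 0.590% to 1.10%. The lowest share of miR-29b, in tumor replicate 2 of week 8, had an exact 95% binomial interval from 0.445% to 0.768%, which covers counting error only. The family as a whole took 2.07% ± 0.652 of the counts of a normal library (SD, n = 12) and 1.16% ± 0.206 of a tumor library. Its summed level in CPM was lowest in tumors of week 6 (10092 ± 1131) and highest in normal glands of week 12 (30154 ± 8698, SD, n = 3). Reads of small RNA libraries depend on how well each sequence is ligated, so that these shares compare counts and not molecules.

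In the normal glands, miR-29a and miR-29b were higher at week 12 than at week 6. The log2 difference was 1.16 for miR-29a (SE 0.29, edgeR adjusted p = 0.00884) and 1.08 for miR-29b (SE 0.30, adjusted p = 0.0124), in a fit of all 24 libraries. For miR-29c it was 0.76 and was not called (SE 0.30, edgeR adjusted p = 0.0726). Higher levels at week 12 were called for 5.49% of the tested miRNAs in normal glands and for 4.22% in tumors. In the normal comparison the median of all tested miRNAs was 0.06 with TMM and -0.23 with library sizes only, and with library sizes the calls shifted from 13 higher and 37 lower to 2 and 43, miR-29b then missing the threshold at 0.78 (edgeR adjusted p = 0.0772). Neither call held in a fit of only the 6 libraries compared, at 1.10 for miR-29a and 1.04 for miR-29b (edgeR adjusted p = 0.102 for both). The call of miR-29a was lost without normal replicate 3 of week 6 (edgeR adjusted p = 0.0716) or replicate 1 of week 12 (adjusted p = 0.0515). That of miR-29b was lost without normal replicate 2 of week 6 (edgeR adjusted p = 0.0590) or replicate 1 of week 12 (adjusted p = 0.0972), and miR-29c was called without replicate 1 of week 6 (adjusted p = 0.0172) or replicate 2 of week 12 (adjusted p = 0.00871).

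In the tumors, the difference between weeks 12 and 6 was 0.56 for miR-29a (SE 0.29, edgeR adjusted p = 0.226), 0.15 for miR-29b (adjusted p = 0.774) and -0.03 for miR-29c (adjusted p = 0.962), and none was called. In a fit of only the 6 tumor libraries compared, miR-29a was called, at 0.59 (edgeR adjusted p = 0.0344). Whether the tumor-normal difference itself changed from week 6 to week 12 was tested as an interaction. It was -0.60 for miR-29a (SE 0.41), -0.93 for miR-29b (SE 0.42) and -0.79 for miR-29c (SE 0.42), with edgeR adjusted p-values of 0.447, 0.326 and 0.415. With 1 replicate number of tumor or normal left out at all weeks, these values ranged from -0.72 to -0.40, from -1.07 to -0.60 and from -0.89 to -0.58, and none was called. The smallest for miR-29b was without tumor replicate 2, and that for miR-29a without normal replicate 3. In the interaction test with all 24 libraries, miR-29b had an unadjusted edgeR p of 0.0376, as 1 of 31 miRNAs under 0.05, of which 1 passed the adjustment. A change at any week was called for 0 of the 237 miRNAs by edgeR, with 9 at an unadjusted p under 0.05. In this edgeR test the adjusted p was 0.971 for miR-29a and 0.938 for both miR-29b and miR-29c.

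Libraries were sequenced on 2 lanes, and each group had libraries on both. Within lane 1 the tumor-normal difference in mean log2 CPM was negative for all members at all 4 weeks, from -2.20 to -0.61. Within lane 2 it was negative for miR-29b (-1.38 to -0.65) and miR-29c (-1.25 to -0.32) at all 4 weeks. For miR-29a it was negative there at 3 weeks, with 0.10 at week 6. Lane 1 at weeks 10 and 12 and lane 2 at weeks 6 and 8 held only 1 tumor and 1 normal library. The differences of these weeks, the -2.20 of week 12 and the 0.10 among them, thus rest on single libraries. All replicates 1, highest among the normal glands, were on lane 1.

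The miRNAs whose profile was most like that of each member were found by the root mean square difference of mean log2 CPM, centred on each miRNA's own mean, over the 8 groups. The nearest to miR-29a were miR-26a (0.14), miR-23a (0.16) and miR-27a (0.18), where the median of the other tested miRNAs was 0.74. miR-23a and miR-27a come from a shared precursor transcript. The nearest to miR-29b were miR-29c (0.14), miR-125b (0.17) and miR-664 (0.17), and the nearest to miR-29c were miR-664 (0.12), miR-29b (0.14) and miR-143 (0.14), a smooth muscle miRNA. Neither of these lists holds miR-29a. Over the 24 libraries in place of the group means, miR-29b and miR-29c were each other's nearest (0.25), and miR-26a stayed the nearest to miR-29a (0.18). At week 12 the log2 fold changes of these neighbors were -0.75 for miR-26a, -0.70 for miR-23a and -0.77 for miR-27a, against -1.63 for miR-125b, -1.41 for miR-664 and -1.44 for miR-143. All 6 were called at week 12 (edgeR adjusted p from 0.00724 to 0.0418), where 21.5% of all tested miRNAs were called under-expressed. At earlier weeks not all were: miR-26a was not called at weeks 6, 8 and 10, miR-23a and miR-27a not at weeks 6 and 8, and miR-664 not at week 6. The neighbors were picked for likeness over the same 8 groups, week 12 included, so their likeness to the members is no separate result.

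**Figure D5:**
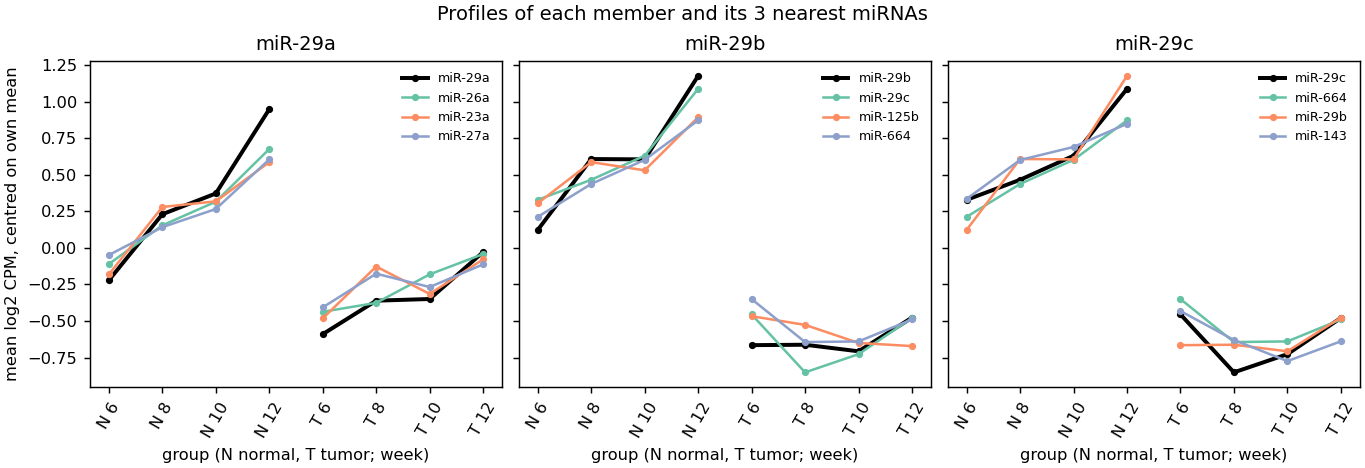
Mean log2 CPM of each member (black) and its 3 nearest miRNAs over the 8 groups, centred on each miRNA's own mean (N normal, T tumor, with the week). In each panel, the lines of a member and its neighbors are higher in normal glands of week 12 than in any tumor group.

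The fibroblast and smooth muscle miRNAs and the endothelial miR-126 were lower in tumor, as the family was. All 5 fibroblast and smooth muscle miRNAs of the list (miR-143, miR-145, miR-199a, miR-199b and miR-214) were under-expressed in tumor at each of the 4 weeks. Of all tested miRNAs, 29.5%, 13.5%, 27.4% and 21.5% were under-expressed in the order of the weeks, and 7.59% at all 4 weeks. The medians of the list were -0.96, -1.16, -1.22 and -1.44 (log2 fold change, in the order of the weeks) against -0.12, -0.09, -0.15 and -0.19 over all tested miRNAs. The summed level of these 5 ran from 158619 to 276068 CPM in normal glands and from 70032 to 136943 CPM in tumors. miR-145 had the lowest mean log2 fold change over the weeks among them (-1.62) and miR-214 the highest (-0.93). With library sizes in place of TMM, the calls of miR-214 were lost at week 8 (-1.13, edgeR adjusted p = 0.0626) and week 12 (-0.86, adjusted p = 0.0554). The endothelial miR-126 was under-expressed at all 4 weeks as well, with log2 fold changes of -0.67, -1.46, -1.39 and -1.57, and ran from 20498 to 37464 CPM in normal glands and from 6568 to 18254 CPM in tumors. The part of these marker changes in the result for miR-29 was not tested.

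The epithelial list moved the other way. Of its 10 tested members, 8 were over-expressed at each week, where 29.1%, 21.9%, 32.9% and 29.1% of all tested miRNAs were at weeks 6, 8, 10 and 12, with the highest mean log2 fold change for miR-200b (2.53) and the lowest for miR-203 (-0.71), and their summed level was 15327 to 30652 CPM in normal glands and 57013 to 98241 CPM in tumors. At week 12, miR-203 was under-expressed, and this call was lost with library sizes in place of TMM. Of the 3 tested leukocyte miRNAs, 1 was under-expressed at each week, miR-150 (mean log2 fold change -2.07), while miR-155 was not called at any week (0.16). The myeloid miR-223 was listed at 0 in every library, while miR-142 of the same list had 81069 counts in all libraries together. Whether reads of miR-223 could be counted here was not tested, so the 0 is not read as a lack of myeloid cells. Of the 3 tested skeletal muscle miRNAs, 0, 1, 0 and 3 were under-expressed at weeks 6, 8, 10 and 12, with mean log2 fold changes of -3.34 for miR-1 and -2.92 for miR-133a, and the summed muscle level ran from 89.0 to 89354 CPM in normal glands and from 39.9 to 18079 CPM in tumors. Of the 3 erythroid miRNAs, 1, 0, 1 and 3 were under-expressed, with means of -1.29 for miR-451 and -0.92 for miR-144. Under-expression was called for 29.5%, 13.5%, 27.4% and 21.5% of all tested miRNAs at weeks 6, 8, 10 and 12. With 3 miRNAs per list, counts of 0 or 1 are not set apart from these shares. Of the 3 adipocyte-linked miRNAs, miR-378 was under-expressed at weeks 10 and 12 (mean -1.22) and miR-193b over-expressed at week 6 (mean 0.34), the latter not with library sizes.

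A list of 22 other miRNAs that have been linked to extracellular matrix or fibrosis had calls in both directions. Of its 21 tested miRNAs, 4, 5, 5 and 8 were under-expressed at weeks 6, 8, 10 and 12 and 8, 5, 9 and 6 were over-expressed, and the median log2 fold changes were 0.21, 0.23, 0.32 and -0.07. Of all tested miRNAs, 29.5%, 13.5%, 27.4% and 21.5% were under-expressed at weeks 6, 8, 10 and 12. Over-expression was called for 29.1%, 21.9%, 32.9% and 29.1% of them. With library sizes in place of TMM the medians were 0.068, 0.12, 0.31 and 0.065, so that the week 12 median changed sign, and there were 7 under-expressed and 8 over-expressed at week 12 and 6 over-expressed at week 6. The highest mean over the weeks was again that of miR-200b, which represses the mesenchymal transcription factors Zeb1 and Zeb2, and the lowest that of miR-133b (-3.15), a muscle miRNA that was called at 1 week. The list shares miRNAs with the fibroblast, epithelial and muscle lists, so its counts are not separate from theirs. miR-206, a member of this list and the muscle list, had 75 counts in all libraries together and was not tested.

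The sites that the family can pair with in matrix genes are shown for orientation, since the messenger RNA of these tissues was not analysed here. The letters TGGTGCT, the match to the shared seed on the strand of the transcript, were searched in the longest annotated 3′ UTR of 12 genes picked as known matrix genes or miR-29 targets (mm9). Elastin had no annotated 3′ UTR, and 8 of the other 11 (72.7%) had the letters at least once, against 2474 of 19915 genes (12.4%). The UTRs of the matrix genes were longer, with a median of 1378 against 893 bases, and the genes were chosen for their known link to miR-29, so nothing follows from the higher share. Col1a1 and Col3a1, chains of fibrillar collagens, had 1 site each, and the basement membrane collagen genes Col4a1 and Col4a2 had 1 and 2. Col5a1 had 4, Col5a2 and the laminin gene Lamc1 had 1 each and Fbn1, which encodes the microfibril protein fibrillin, had 2. In Col1a2, Col6a3 and Sparc these letters were not found in the UTR searched. One site of each of 3 genes follows, with 8 bases on either side and the seed match in capitals, at chr11:94813852-94813858 on the plus strand, chr1:45405827-45405833 on the plus strand and chr2:125126910-125126916 on the minus strand.
Col1a1: ggaatttcTGGTGCTatagaagc
Col3a1: tgtctcaaTGGTGCTataataaa
Fbn1: tgtctgttTGGTGCTagtaaatt
These stretches pair with the seed of all 3 members alike, and the base that separates miR-29a from miR-29c lies outside it.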

How the data were processed

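Small RNA libraries of 12 tumors and 12 normal mammary glands were used, in 8 groups of 3 mice. The authors trimmed barcode and adaptor, aligned reads of mature miRNA length with Bowtie, counted reads overlapping a miRBase miRNA, and deposited these raw counts per miRNA without normalization. The labels and the submitters' processing notes name mm9, the paper mm10, and the Bowtie version and the treatment of reads with several alignments are not given in the sources used here. Total counts were 1032241 to 3931375 per library. Groups, weeks, replicate numbers and lanes came from the labels.

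Counts were tested with edgeR 4.0.16 in R 4.3.3 (filterByExpr over 8 groups, TMM, quasi-likelihood test, Benjamini-Hochberg, threshold 0.05), with a fit per week for tumor against normal and a fit of all 24 libraries for weeks and interactions. Log2 CPM used a prior count of 2. Ratios of members used 0.5 added to each count and exact permutation tests within weeks in Python 3.11.15 with scipy 1.17.1. Their 95% intervals hold the shifts that this test does not refuse. Alternatives were DESeq2 1.42.0 (size factors, Wald test), library sizes only, the classic exact test, other filters, a single fit, lane, replicate block and left-out replicates. The procedure was tested on simulated data. The named miRNAs are the family, the 3 nearest in profile to each member, and from each list the tested miRNA with the highest and the one with the lowest mean log2 fold change. Other list members named, and the matrix genes, complete a list. The members and lists were chosen with earlier results of these data known. The labels give no shared litter, batch or day for a replicate number, but the same-numbered tumor and normal library of a week were on the same lane. Numbers were to count as a pairing only if the deviations from group means correlated above 0.1 in every same-numbered pair. This was met in 10 of 12 pairs (mean correlation 0.41) and so not in all, and the tests are unpaired. Values with a replicate block are given below. Loci and UTRs are those of GENCODE M1 on mm9, and mature sequences are those of RefSeq.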

Additional observations from a re-analysis of the deposited data

How the results depend on the processing

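With 3 libraries per group, single libraries decided several calls. Of the 108 weekly values of the members under other normalizations, tests, filters and models, 104 kept their direction and their side of the threshold and none changed direction. Week 6 of miR-29b was called by the Wald test of DESeq2 (-0.75), with library sizes only (-0.90) and a single fit of all 24 libraries (-0.77), and week 10 of miR-29a missed the threshold with the classic exact test (-0.76, adjusted p = 0.0600). With the replicate block, 9 of the 12 weekly comparisons were called, as without it, and no call of a member changed in them. Within a week, the deviations of a tumor and a normal library with the same number correlated from 0.0312 to 0.816. They were above 0.1 in 10 of 12 pairs, all but replicates 1 and 3 of week 12. Those of same-numbered normal libraries of weeks 6 and 12 correlated at 0.78, -0.57 and 0.25. Among the 3 libraries of the other kind in their week, 17 of 24 libraries correlated best with their own number. The block raised the count of under-expressed miRNAs at week 8 from 32 to 68, the Wald test to 50 and the single fit to 52. With 1 replicate left out, 5 to 10 of the 12 comparisons were called. The log2 fold changes then ranged from -0.61 to -0.12 (week 6), -1.003 to -0.53 (week 10) and -1.25 to -0.83 (week 12) for miR-29a, where week 8 ranged from -0.95 to -0.17, from -1.51 to -0.92 at week 8 for miR-29b, and from -1.04 to -0.50 (week 6) and -1.62 to -0.97 (week 8) for miR-29c. In normal glands, week 12 over week 6 missed the threshold for miR-29a in the fit of 6 libraries (1.10) and with the replicate block (1.13), and for miR-29b in these (1.04 and 1.02) and with library sizes only (0.78). With 1 library left out it ranged from 0.95 to 1.57 for miR-29a, 0.80 to 1.41 for miR-29b and 0.42 to 1.19 for miR-29c. In tumors the value of miR-29a was called in the fit of 6 libraries (0.59, adjusted p = 0.0344). The values of miR-29c near 0 turned positive with DESeq2 size factors (0.10), in the fit of 6 libraries (0.0025) and with the replicate block (0.017), and ranged from -0.12 to 0.14 with 1 library left out, while those of miR-29b ranged from -0.024 to 0.51. The ratio of miR-29b to miR-29c, also near 0, was 0.0084 with 2 added to each count and -0.037 to 0.019 with a replicate left out, and both ratios to miR-29a kept their direction and call throughout. The causes were not tested.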
